A study of Oryzias latipes with 24 samples.

Results

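The transcriptome of medaka embryos at stage 19, when the first somites appear, was set against that at stage 15, during gastrulation. Both stages were sampled in duplicate, so that 4 of the 24 samples of the series entered the comparison: stage 15 replicates 1 and 2 and stage 19 replicates 1 and 2. All 4 libraries were made from untreated whole embryos of the wild-type Hd-rR strain, each from a pool of many embryos, and no allele or agent separated the stages. The libraries belonged to a time course of 22 libraries, with 2 at each of 11 stages from stage 06 to stage 41. Of these 22, replicate 2 of stages 40 and 41 came from another strain, d-rR / Qurt, and the others from Hd-rR. A pair of gonad samples was not used here. Whether the replicates of a stage came from separate clutches was not stated in the sources used here. The p-values therefore measured a spread between replicate libraries that may be technical. That spread was estimated over all 22 libraries, and at stages 40 and 41 it includes the difference of strain.

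Gastrulation ends, and somitogenesis begins, between these stages. In the fish gastrula, Nodal ligands and their target transcription factors specify mesendoderm, and the dorsal organizer secretes antagonists of BMP that pattern the dorsoventral axis. As the body axis extends, presomitic mesoderm is cut into somites under a Notch, FGF and Wnt based clock, Hox genes are switched on in an order that follows their position in the clusters, and the neural plate is divided into forebrain, midbrain and hindbrain. Neural crest, placodes, heart field and blood precursors are set aside at about the same time.

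Expression was given as TPM (the share of a transcript among all transcripts, corrected for length), a measure per length of transcript that is scaled to a common total in each library. The values hold no read depth, so the counting error of a low value was not known. Differences were tested with limma on log2(TPM + 1) over all 22 libraries, and a gene was called when its Benjamini-Hochberg adjusted p was under 0.05 and its log2 change at least 1. Below, "rose" and "fell" are used only of called genes, adjusted p-values are those of limma, and the error of a log2 change is its standard error (SE). The addition of 1 TPM makes the log2 change of a low gene smaller than the ratio of its TPM values.

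The 4 libraries separated by stage. The rank correlation between replicates was 0.979 at both stages, and across stages it ran from 0.901 to 0.911. Of the 21179 genes tested, 2087 rose (9.85%) and 1698 fell (8.02%), while 17394 were not called (17.9% were called in either direction), and the median log2 change of all genes was 0.0076. In both stage 15 libraries 13701 of the 21179 were at 1 TPM or more. The 8.02% thus includes genes too low to be called as falls, which limits its use as a base for lists of expressed genes. The TPM values of both stages did not overlap in any of the 2087 rises and in 1697 of the 1698 falls, against 32.3% of all genes tested that were higher in both stage 19 libraries and 27.3% that were lower in both. The call used these same libraries and nearly fixes this lack of overlap, which is therefore no separate support. A fit of the 4 libraries alone gave 768 rises and 523 falls. It kept 131 of the 237 calls among genes named by the rule given at the end. Calls of acvr1b, fst, tbx6, cyp26b1, aldh1a2 and cdt1 were among those lost, and such losses are not marked gene by gene below. Without stage 19 replicate 2 the rises numbered 1259. Without stage 15 replicate 2 the falls numbered 1058, and without stage 19 replicate 1 they numbered 955.

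The libraries of a stage were not equal in composition. At stage 19, replicate 2 was higher than replicate 1 in 76.5% of the genes tested, with a median log2 difference of 0.291, and at stage 15 it was higher in 55.8%. In stage 19 replicate 1 a single unnamed gene on chromosome 16, IGDB16139, took 5.02% of the summed TPM at 49230 TPM, against 15740 TPM in replicate 2. Genes of the mitochondrial genome took 6.38% and 7.30% of TPM at stage 15 and 2.46% and 2.01% at stage 19. Among the 873 rises with a mean under 1 TPM at stage 15, the trace was higher in replicate 2 for 633 genes (72.5%). It was higher in replicate 1 for 213 and equal in 27. Of the 6098 genes at that level that were not called, 2833 (46.5%) were higher in replicate 2. A further 1786 of these were higher in replicate 1, and 1479 were equal. At 0 in replicate 1 only were 184 of the rises and 1095 of the genes not called. The part of these differences in the results was not tested, and many but not all of the calls that rested on 1 library are marked below. In whole embryos, fewer cells of a type and less RNA per cell cannot be told apart.

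**Figure D1:**
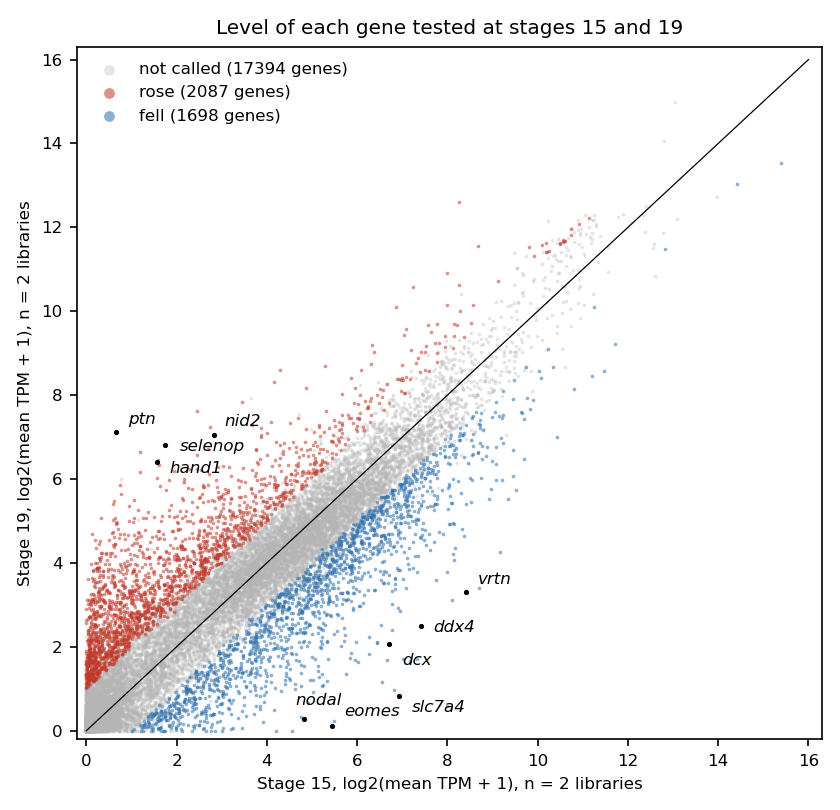
Level of each of the 21179 genes tested, as log2 of the mean TPM plus 1 over 2 libraries, at stage 15 (horizontal axis) and stage 19 (vertical axis). Red points rose (2087 genes), blue points fell (1698) and grey points were not called (17394), with the diagonal marking equal levels and 10 genes labelled at their positions.

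The stage labels were set against marker lists. Of 15 Nodal and Activin pathway genes, 13 were at 1 TPM or more in both stage 15 libraries and 10 in both stage 19 libraries. Of 35 Hox genes the numbers were 1 and 23, of 24 paraxial mesoderm genes 16 and 22, and of 37 neural plate genes 23 and 29. None of 11 markers of lens, late neurons, retina and gut reached that level in both stage 15 libraries, and 2 did at stage 19. Over all 21179 genes tested the numbers were 13701 and 14401. The markers did not go against the labels, but the lists were chosen with earlier results of these data known, so this is a weak check. The 10 greatest rises and 10 greatest falls among genes with a symbol and a mean of at least 10 TPM at the higher stage were all called without any 1 of the 4 libraries. They were ptn, nr2f5, selenop, hand1, cldn5, lmo2, oc90, twist1, nid2 and sparc among the rises and slc7a4, eomes, vrtn, ddx4, dcx, nodal, mixl1, asb12, prdm14 and ttc22 among the falls.

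The falls among Nodal pathway genes included a ligand, a receptor, a nuclear partner of the Smads and target genes. None of its 15 genes rose by limma (1 had an unadjusted p under 0.05 in that direction), 6 fell (40% against 8.02% of all genes) and the median log2 change was −0.343. This count was 6 without any 1 library. The ligand nodal, on chromosome 19 at 10923883 to 10928317, was at 27.4 and 27.5 TPM at stage 15 and at 0.243 and 0.177 TPM at stage 19 (log2 change −4.55 ± 0.33, adjusted p = 1.22e-07). Both gastrula libraries had nearly equal levels, and both somite libraries held a trace. Eomes, a T-box factor that acts with the pathway in mesendoderm, was at 36 and 49.1 TPM and then at 0 and 0.163 TPM (−5.32 ± 0.35, adjusted p = 8.79e-08). The homeobox gene mixl1, a direct target in vertebrates, was at 16.3 and 18.6 TPM and was listed at 0 in both stage 19 libraries. The feedback inhibitor lefty1 was at 18.3 and 25.5 TPM and then at 1.37 and 1.23 TPM (−3.30 ± 0.27, adjusted p = 4.25e-07). Ligand and inhibitor were both far lower in each stage 19 library than in either stage 15 library.

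Genes that receive the signal were partly called. The type I receptor acvr1b was at 95.3 and 198 TPM at stage 15 and at 22 and 40.2 TPM at stage 19 (−2.17 ± 0.36, adjusted p = 0.000342). The nuclear partner of the Smads, foxh1, was at 82.8 and 123 TPM and then at 12.5 and 11.6 TPM (−2.96 ± 0.41, adjusted p = 6.43e-05). Both genes were lower in each stage 19 library than in either stage 15 library. The Smads that carry signals of many ligands were not called. The levels of smad2 were 14 and 21.5 TPM and then 11.3 and 16 TPM, with overlap, and those of smad4 were 32.8 and 46.7 TPM and then 28 and 38.6 TPM. The ligand gdf3, which pairs with Nodal in fish, was at 20.8 and 23.7 TPM and then at 28.7 and 23.4 TPM (0.22 ± 0.35, adjusted p = 0.8).

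Of 13 organizer genes and BMP antagonists, 3 fell (23.1% against 8.02% of all genes tested) and 4 rose (30.8% against 9.85%). The organizer homeobox gene gsc was at 88.1 and 170 TPM and then at 9.54 and 12.9 TPM (−3.35 ± 0.52, adjusted p = 0.000179), and lhx1 (IGDB14078) was at 15.4 and 16.2 TPM and then at 2.2 and 2.53 TPM (−2.32 ± 0.35, adjusted p = 0.000152). The BMP antagonist chrd was at 94.4 and 120 TPM and then at 24.3 and 36.2 TPM (−1.81 ± 0.53, adjusted p = 0.0215), and this call was lost without either stage 15 library, without stage 19 replicate 1 and under quantile normalization. Another secreted antagonist rose. Follistatin, fst, which binds Activin and BMP, was at 0.796 and 2.5 TPM and then at 11.6 and 31.5 TPM (3.01 ± 0.40, adjusted p = 4.13e-05). Sebox, foxa2 and otx2a, also on the list, were not called.

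**Figure D2:**
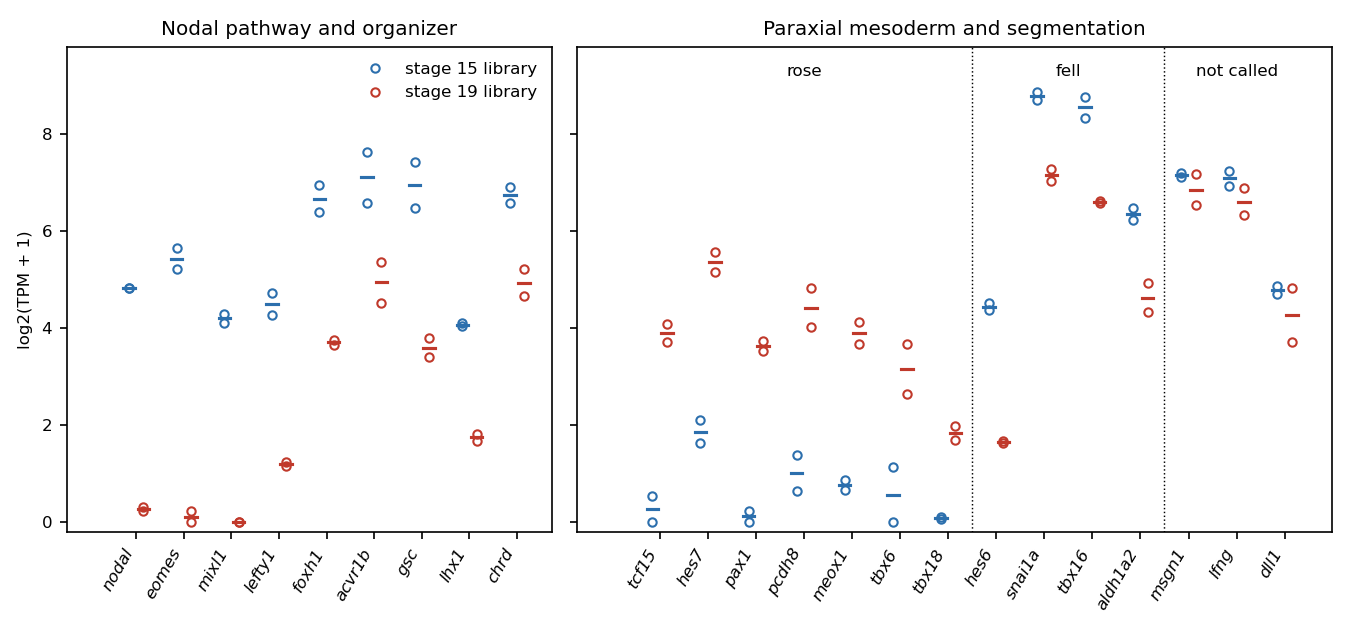
TPM of Nodal pathway and organizer genes (left) and of paraxial mesoderm genes (right) in each library, as log2(TPM + 1), with open circles for libraries and bars for the mean of the log2 values, blue for stage 15 and red for stage 19. Nodal, eomes and mixl1 sit at or near 0 in both stage 19 libraries, and on the right the genes are ordered as 7 that rose, 4 that fell and 3 that were not called.

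Paraxial mesoderm genes moved both ways. Of 24 tested, 8 rose (33.3% against 9.85% of all genes tested) and 4 fell (16.7% against 8.02%), with a median log2 change of 0.145. Those that rose included genes of the somite and of the presomitic mesoderm. Tcf15, which epithelial somites need in vertebrates, was at 0 and 0.442 TPM and then at 12.1 and 15.9 TPM (3.63 ± 0.33, adjusted p = 1.22e-06). Meox1 was at 0.577 and 0.828 TPM and then at 11.8 and 16.5 TPM (3.14 ± 0.30, adjusted p = 1.90e-06). The protocadherin pcdh8, a cell adhesion gene of forming somites, was at 0.548 and 1.61 TPM and then at 15.3 and 27.2 TPM (3.41 ± 0.36, adjusted p = 4.34e-06). These 3 genes were near or under 1 TPM in the gastrula and above 10 TPM in every somite library. The sclerotome gene pax1 and the T-box genes tbx6 and tbx18 also rose, by log2 changes of 3.51, 2.59 and 1.75.

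Hairy-related genes also moved both ways. Hes7 (IGDB00981) was at 2.08 and 3.29 TPM and then at 46.6 and 34.9 TPM (3.51 ± 0.52, adjusted p = 0.000114), while hes6 (IGDB16843) was at 19.6 and 21.9 TPM and then at 2.1 and 2.18 TPM (−2.79 ± 0.25, adjusted p = 8.90e-07). A further hes6 gene (IGDB14120) was at 67.7 and 47.9 TPM and then at 54.1 and 68.9 TPM and was not called. Msgn1, lfng and dll1, which act in the presomitic mesoderm, were not called. Msgn1 was at 137 and 146 TPM and then at 91.9 and 143 TPM, the fringe gene lfng at 121 and 151 TPM and then at 79.1 and 117 TPM, and the Notch ligand dll1 at 24.9 and 28.3 TPM and then at 12.1 and 27.4 TPM. Their levels in both stages overlapped except for lfng, whose 2 stage 19 values were below both stage 15 values (−0.49 ± 0.33, adjusted p = 0.357).

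The falls of this list were hes6 (IGDB16843), aldh1a2, snai1a and tbx16. Aldh1a2, which makes retinoic acid, was at 74.2 and 88.3 TPM and then at 19.2 and 29.3 TPM (−1.73 ± 0.35, adjusted p = 0.00179). Snai1a, a zinc finger factor of cells that leave an epithelium, was at 414 and 467 TPM and then at 155 and 130 TPM. Tbx16, a T-box gene of early mesoderm in fish, was at 437 and 324 TPM and then at 98 and 94.5 TPM. These calls were less firm. That of snai1a was lost without stage 15 replicate 2 or stage 19 replicate 2, which left 2 falls on the list in either case, and that of tbx16 was lost without any 1 library and under median-of-ratios and quantile scaling.

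Wnt genes rose more often than genes at large. Of 50 tested, 17 rose (34% against 9.85%) and 2 fell (4% against 8.02%), and the median log2 change was 0.683. Among 11 ligands 6 rose: wnt4, wnt3, wnt1, wnt6, wnt10b and wnt7a. Wnt1, a ligand of the midbrain-hindbrain boundary, was at 0 and 0.298 TPM and then at 3.47 and 6.13 TPM (2.31 ± 0.25, adjusted p = 4.54e-06). Wnt3 was at 0.0417 and 0.594 TPM and then at 7.21 and 5.82 TPM (2.54 ± 0.26, adjusted p = 3.53e-06). Each of the 6 was at or under 1.12 TPM in both gastrula libraries. Some inhibitors rose as well. Of 3 secreted frizzled-related proteins 2 rose and 1 was not called. The highest mean among these 3 was 77.3 TPM at stage 15 and 42.5 TPM at stage 19. Notum, which removes the lipid from Wnt proteins, was at 0.0929 and 0.347 TPM and then at 8.35 and 17.8 TPM (3.45 ± 0.33, adjusted p = 2.02e-06), and sfrp5, a secreted decoy, was at 0.242 and 0.744 TPM and then at 17 and 18.7 TPM (3.68 ± 0.35, adjusted p = 1.73e-06). The feedback genes dact1 and nkd1 rose by 2.11 and 1.48, and the call of nkd1 was lost without stage 15 replicate 1 or stage 19 replicate 2.

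R-spondins, which strengthen Wnt signals through LGR receptors, parted. Rspo2 was at 31.9 and 48.3 TPM at stage 15 and at 2.01 and 2.53 TPM at stage 19 (−3.63 ± 0.26, adjusted p = 1.22e-07), whereas rspo3 was at 0.221 and 0.241 TPM and then at 3.18 and 4.54 TPM (1.97 ± 0.26, adjusted p = 3.88e-05). The receptors lgr6 and lgr5 rose, lgr6 from 0 and 0.593 TPM to 8.46 and 11.4 TPM. The second Wnt gene that fell was sp5, a target gene in vertebrates, at 59 and 48.3 TPM and then at 8.55 and 9.22 TPM (−2.46 ± 0.33, adjusted p = 4.31e-05). The core of the pathway was abundant and not called: ctnnb1, which encodes β-catenin, was at 542 and 883 TPM and then at 339 and 698 TPM, and tcf7l1 was at 176 and 178 TPM and then at 93.2 and 72.3 TPM (adjusted p = 0.424).

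None of 22 FGF genes fell by limma, also at an unadjusted p under 0.05, and 5 rose (22.7% against 9.85% of all genes tested). They were fgfr2, fgfr3, fgf3, fgf18 and fgfbp3, a binding protein of FGF that was at 0 and 0.284 TPM and then at 12.7 and 17.4 TPM. Fgfr2 was at 4.04 and 5.49 TPM and then at 36.9 and 56.4 TPM (3.03 ± 0.31, adjusted p = 3.37e-06), and fgfr3 was at 4.97 and 4.66 TPM and then at 12.1 and 22 TPM (1.58 ± 0.30, adjusted p = 0.00099). The receptor that was already abundant in the gastrula, fgfr1, was at 52.5 and 78 TPM and then at 54.2 and 86.3 TPM, with overlap. Of the 8 ligands fgf3 rose, from 3.81 and 3.29 TPM to 14.2 and 15.3 TPM, and so did fgf18, whose call was lost without stage 19 replicate 2. The ligand fgf8 was at 35.7 and 32.4 TPM and then at 26.5 and 43.1 TPM (−0.01 ± 0.40, adjusted p = 1), and the feedback gene spry4, at 16.8 and 24.8 TPM and then at 29.5 and 34.8 TPM, did not pass the test.

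Hedgehog genes rose in 9 of 15 cases (60% against 9.85% of all genes tested), with a median log2 change of 1.22. None fell by limma, also at an unadjusted p under 0.05. The co-receptor cdon was at 7.81 and 7.31 TPM and then at 40.3 and 59.8 TPM (2.55 ± 0.33, adjusted p = 2.91e-05). The receptor and target ptch1 rose from 1.09 and 1.85 TPM to 6.47 and 9.43 TPM. The effector gli2 rose from 6.71 and 4.89 TPM to 34 and 32.4 TPM (2.34 ± 0.39, adjusted p = 0.000325). These 3 genes were called without any 1 library. The ligand shh was at 8.22 and 6.05 TPM and then at 16.9 and 24.8 TPM (1.41 ± 0.41, adjusted p = 0.0206), and its call and those of gli1, gas1, scube2 and scube3 were lost without stage 15 replicate 1, stage 15 replicate 2 or stage 19 replicate 2, each of which left 4 rises on the list. Smo, the signal transducer, was at 33.6 and 50.3 TPM and then at 30.3 and 61 TPM.

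Of 15 retinoic acid genes 5 rose (33.3% against 9.85% of all genes tested) and aldh1a2 fell (6.67% against 8.02%). The plasma carrier of retinol, rbp4, was at 275 and 229 TPM and then at 2360 and 1510 TPM (2.91 ± 0.64, adjusted p = 0.0035), and its cell surface receptor stra6 was at 0.908 and 0.995 TPM and then at 7.42 and 10.2 TPM (2.31 ± 0.40, adjusted p = 0.000519). The degrading enzyme cyp26b1 was at 0.178 and 0.496 TPM and then at 2.54 and 12.2 TPM (2.37 ± 0.43, adjusted p = 0.000771), with the stage 19 libraries far apart. Another degrading enzyme, cyp26a1, was at 40.1 and 50.9 TPM and then at 18.7 and 28.7 TPM and was not called (−0.93 ± 0.47, adjusted p = 0.189). The synthesis gene was thus lower and the carriage genes higher in both stage 19 libraries.

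Of 22 Notch genes 4 rose and 2 fell (18.2% and 9.09%, against 9.85% and 8.02% of all genes tested). The receptor notch1 (IGDB09843) was at 1.21 and 1.09 TPM and then at 7.21 and 13.3 TPM (2.33 ± 0.34, adjusted p = 0.000108), and the targets hey1 (IGDB15751) and hey2 rose from 0.687 and 0.389 TPM to 9.15 and 10.5 TPM and from 0.55 and 0.483 TPM to 4.16 and 4.21 TPM. Hes7 was the fourth. The falls were hes6 (IGDB16843) and numb, and a single fall was left without stage 15 replicate 2 or stage 19 replicate 1. The ligand dld was at 88.5 and 94.9 TPM and then at 119 and 167 TPM (0.61 ± 0.27, adjusted p = 0.127). Of 18 BMP genes 5 rose, 3 without stage 15 replicate 2, and 2 fell. The falls numbered 0 without stage 15 replicate 2 and 1 without stage 15 replicate 1, without stage 19 replicate 1 or under quantile normalization. In all 4 libraries the BMP shares were 27.8% that rose and 11.1% that fell, the latter near the 8.02% of all genes tested. The ligand bmp6 was at 1.11 and 0.53 TPM and then at 12.5 and 15.9 TPM (3.07 ± 0.26, adjusted p = 4.73e-07) and the transducer smad9 at 9.28 and 10.3 TPM and then at 55.4 and 38.3 TPM (2.13 ± 0.33, adjusted p = 0.000196). The gastrula ligand bmp4 was at 104 and 106 TPM and then at 57.1 and 65.4 TPM, lower in both libraries but not called (−0.77 ± 0.65, adjusted p = 0.499).

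Hox genes, which give axial identity, were nearly silent in the gastrula. Of 35 tested 23 rose (65.7%) and none fell by limma, also at an unadjusted p under 0.05, and the median log2 change was 1.69. In the 34 genes other than hoxb1 (IGDB04946) the mean level at stage 15 did not exceed 0.626 TPM. None of these 34 could be called as a fall from such a level, so their lack of falls was fixed in advance. The exception, a hoxb1 gene, was at 73.2 and 58.7 TPM at stage 15 and at 86.6 and 82.6 TPM at stage 19 (0.36 ± 0.32, adjusted p = 0.53). The other hoxb1 gene (IGDB09751) was at 0 and 0.225 TPM and then at 5.42 and 7.56 TPM (2.74 ± 0.29, adjusted p = 3.94e-06). In the gastrula 1 Hox gene was thus at 1 TPM or more in both libraries, and hoxa9, given below, was so in replicate 2 only.

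The share of Hox genes that rose was smaller in the posterior paralog groups. Of 19 genes in paralog groups 1 to 8 18 rose, the exception being hoxb1 (IGDB04946), and of 6 in groups 9 and 10 4 rose. Of 10 genes in groups 11 to 13 only hoxa11b rose, at 0.122 and 0.473 TPM and then at 10.6 and 15.6 TPM (3.43 ± 0.36, adjusted p = 3.86e-06). The highest level reached by a rise was that of hoxa9, at 0 and 1.25 TPM and then at 19.5 and 34.4 TPM (4.16 ± 0.44, adjusted p = 4.48e-06). The 6 genes of groups 12 and 13 were at means of at most 0.169 TPM at stage 15 and at most 0.0763 TPM at stage 19. With 1 library left out, the list had the fewest rises without stage 19 replicate 2.

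**Figure D3:**
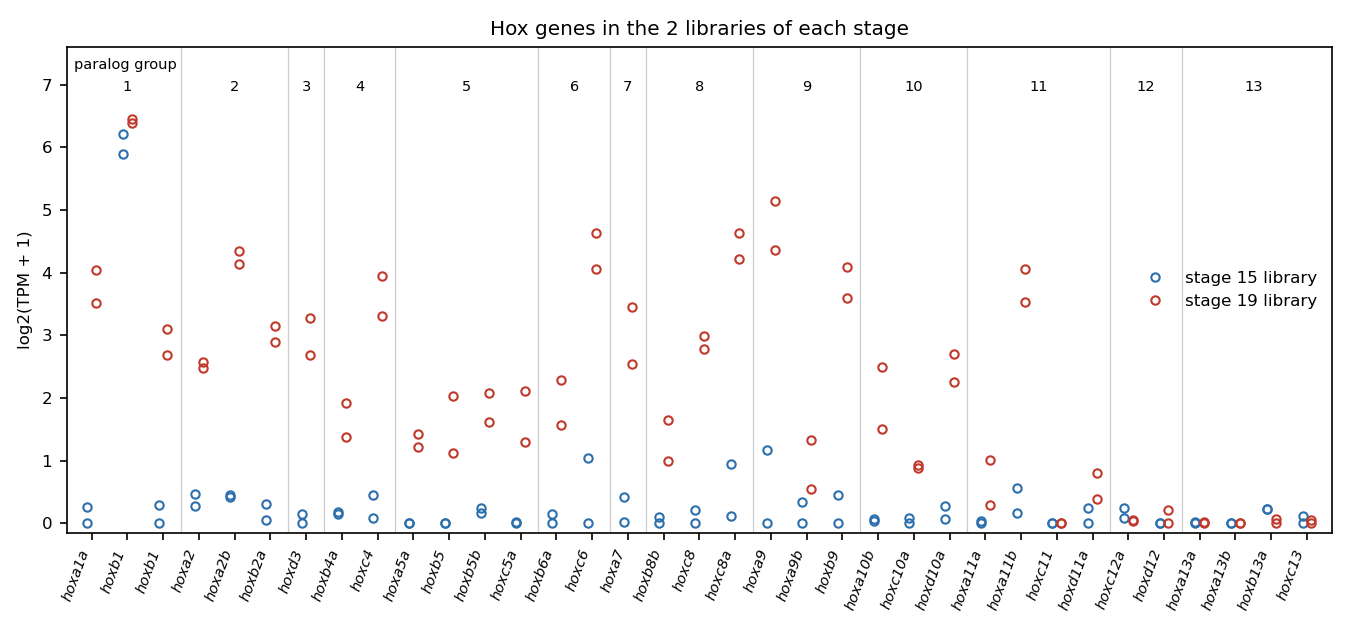
TPM of the 35 Hox genes tested in each library, as log2(TPM + 1), ordered by paralog group (numbers at the top), with blue circles for the 2 stage 15 libraries and red circles for the 2 stage 19 libraries. Stage 19 circles stand above stage 15 circles in groups 2 to 8, hoxb1 (IGDB04946) is high at both stages, and groups 12 and 13 stay near 0.

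The TALE homeobox genes that pair with Hox proteins parted by family. All 4 meis genes rose. Meis3 was at 12 and 13.1 TPM and then at 98.7 and 107 TPM (2.93 ± 0.32, adjusted p = 5.27e-06) and meis1b at 2.04 and 3.04 TPM and then at 26.6 and 41.4 TPM (3.29 ± 0.41, adjusted p = 2.57e-05). None of the 4 pbx genes was called, and their median log2 change was −0.48, with pbx2 at 112 and 80 TPM and then at 80.6 and 75.2 TPM. The caudal gene cdx4 was at 111 and 74.8 TPM and then at 209 and 283 TPM (1.41 ± 0.36, adjusted p = 0.00945), a call lost without replicate 2 of either stage. Eve1, an even-skipped gene of the ventral and posterior gastrula in fish, was at 116 and 122 TPM and then at 16.1 and 10.2 TPM (−3.12 ± 0.52, adjusted p = 0.000352).

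Most regional genes of the brain rose. Of 34 forebrain and eye field genes 19 rose (55.9%) and of 38 midbrain and hindbrain genes 22 rose (57.9%), against 9.85% of all genes tested. None of either list fell by limma, also at an unadjusted p under 0.05. In both stage 15 libraries 10 of the 34 and 19 of the 38 genes were at 1 TPM or more. A gene with a mean under that level could not be called as a fall. The eye field gene six3 (IGDB17879) was at 0.518 and 1.94 TPM and then at 31.5 and 43 TPM (4.16 ± 0.51, adjusted p = 1.90e-05) and pax6 was at 2.15 and 2.95 TPM and then at 37 and 37.5 TPM (3.44 ± 0.30, adjusted p = 6.99e-07). At the midbrain-hindbrain boundary, en2 was at 0.239 and 0.943 TPM and then at 24.4 and 35.5 TPM (4.29 ± 0.35, adjusted p = 4.42e-07). Pax8 and pax2 (IGDB04841) rose by 3.89 and 3.02. In the hindbrain, egr2 (IGDB18075) of rhombomeres was at 0.2 and 0.915 TPM and then at 19.9 and 13.9 TPM (3.54 ± 0.32, adjusted p = 1.22e-06). Each of these genes was at most 2.95 TPM in a gastrula library.

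Some genes of early neural regions were already present. The anterior gene otx2a was at 70.9 and 48.2 TPM and then at 54.9 and 50.6 TPM, and irx7 at 147 and 116 TPM and then at 116 and 92.1 TPM, with no call. Another otx2 gene (IGDB19857) did rise (log2 change 1.87, adjusted p = 0.00167 by limma). In the list of neural plate and progenitor genes, sox2 was at 95.8 and 146 TPM and then at 81.9 and 113 TPM. Sox19b was at 53.1 and 67 TPM and then at 77.9 and 74.3 TPM, and neither gene was called. Of the 37 genes tested 19 rose (51.4% against 9.85% of all genes tested) and 3 fell (8.11%, near the 8.02% of all genes). The rises numbered 15 to 20 under the 3 scalings and 10 in a fit of the 4 libraries alone. They were also fewer without stage 15 replicate 2. Genes of dorsoventral domains were among the rises. Nkx6-2 of the ventral neural tube was at 1.41 and 1.74 TPM and then at 31.5 and 40.8 TPM (3.84 ± 0.30, adjusted p = 2.29e-07), and pax3 (IGDB13885) of the dorsal part was at 1.77 and 2.21 TPM and then at 14.5 and 31.1 TPM (2.90 ± 0.35, adjusted p = 1.51e-05). The falls included zic2b and msx3, from 229 and 206 TPM to 50.7 and 77.9 TPM for zic2b. All 3 falls of the list were lost without stage 15 replicate 1 and without stage 19 replicate 1, 1 remained without stage 15 replicate 2 and 1 under quantile normalization.

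Genes of neuronal differentiation were fewer and lower. Of those tested 23.3% rose, against 9.85% of all genes tested, and 6.98% fell, near the 8.02% of all genes. Of 43 tested 10 rose, 6 of them without either stage 15 library or without stage 19 replicate 2, and 3 fell. The proneural gene atoh1 was at 0 and 0.149 TPM and then at 1.33 and 2.1 TPM (1.33 ± 0.30, adjusted p = 0.00441, lost without stage 19 replicate 2), and isl2 (IGDB08633) at 0 and 0.108 TPM and then at 6.79 and 4.35 TPM (2.62 ± 0.44, adjusted p = 0.000368). The synaptic gene snap25 was at no more than 0.0424 TPM in any of the 4 libraries. The falls were dcx, stmn2 and lhx1 (IGDB14078), the last given above. Dcx, known as a microtubule-binding protein of migrating neurons in mammals, was at 95.3 and 113 TPM in the gastrula and at 3.16 TPM in both stage 19 libraries (−4.65 ± 0.32, adjusted p = 8.91e-08), and stmn2, which binds tubulin, was at 20.9 and 12.5 TPM and then at 3.63 and 2.87 TPM (−2.03 ± 0.43, adjusted p = 0.00239).

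Neural crest and placode genes rose in 20 of 39 and 19 of 31 cases (51.3% and 61.3%, against 9.85% of all genes tested). The crest gene sox10 was at 0 and 0.238 TPM and then at 7.77 and 12.1 TPM (IGDB00224, 3.27 ± 0.31, adjusted p = 1.90e-06), and snai2 was at 8.78 and 4.66 TPM and then at 43.2 and 47 TPM (2.63 ± 0.32, adjusted p = 2.00e-05). Twist1 (IGDB03261), a gene of crest mesenchyme and lateral mesoderm, was at 0.081 and 1.02 TPM and then at 22.7 and 42.9 TPM (4.45 ± 0.57, adjusted p = 2.88e-05). The border genes that precede them were high at both stages and not called: tfap2a was at 208 and 175 TPM and then at 146 and 119 TPM, and dlx3 (IGDB17625) at 161 and 145 TPM and then at 110 and 115 TPM. Of the placode genes, oc90, a matrix protein of the otoconia of the inner ear, was at 1.11 and 1.43 TPM and then at 40.7 and 101 TPM (4.84 ± 0.34, adjusted p = 1.22e-07), and it was among the greatest rises of the comparison.

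Genes of the heart field and lateral mesoderm rose in 18 of 35 cases and 2 fell, 1 of which was called without stage 15 replicate 2 or without stage 19 replicate 1. The shares that rose and fell were 51.4% and 5.71%, against 9.85% and 8.02% of all genes tested. Tbx1, of the pharyngeal mesoderm, was at 0.347 and 0.437 TPM and then at 13.9 and 13.2 TPM (3.38 ± 0.47, adjusted p = 6.37e-05), and hand2 was at 0.637 and 0.4 TPM and then at 10.5 and 10.8 TPM (2.94 ± 0.28, adjusted p = 1.73e-06). Nkx2-5 was at 0 and 0.129 TPM and then at 3.01 and 2.36 TPM. GATA genes of the heart field did not rise. Gata4 was at 247 and 295 TPM and then at 219 and 138 TPM, gata6 at 108 and 136 TPM and then at 116 and 95.6 TPM, and gata5, at 13.5 and 30.4 TPM and then at 5.4 and 10.9 TPM, fell in a call that was lost without stage 15 replicate 2 or stage 19 replicate 1.

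Blood and vessel genes rose in 14 of 28 cases (50% against 9.85% of all genes tested) and 1 fell (3.57% against 8.02%). That fall was lost without stage 15 replicate 1 and under at least 1 of the 3 scalings. The rises numbered 10 to 15 under the 3 scalings and were fewer without stage 19 replicate 2. Already in both stage 15 libraries, 7 of the 28 genes were at 1 TPM or more. Lmo2, which blood and endothelial precursors share, was at 0.0725 and 0.983 TPM and then at 28.4 and 58.3 TPM (4.84 ± 0.37, adjusted p = 2.09e-07). Its partner tal1 (IGDB11130) was at 0 and 0.0866 TPM and then at 6.5 and 4.68 TPM (2.65 ± 0.33, adjusted p = 2.01e-05), and the myeloid factor spi1 was at 0 and 0.0431 TPM and then at 1.75 and 2.46 TPM (1.59 ± 0.23, adjusted p = 7.54e-05). Lmo2, this tal1 gene and spi1 were thus under 1 TPM in each gastrula library and above 1 TPM in each somite library. Cldn5, a tight junction gene of endothelium in vertebrates, was at 0.531 and 3.58 TPM and then at 70.9 and 89.7 TPM (4.93 ± 0.40, adjusted p = 3.38e-07).

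Of 25 kidney genes 9 rose and 4 fell, 2 of them without stage 15 replicate 2. The kidney shares that rose and fell were 36% and 16%, against 9.85% and 8.02% of all genes tested. Wt1 (IGDB23868) was at 0.185 and 0.106 TPM and then at 3.58 and 7.3 TPM (2.43 ± 0.33, adjusted p = 5.61e-05), whereas osr1, an early intermediate mesoderm gene, was at 4.29 and 5.29 TPM and then at 0.323 and 0.293 TPM (−2.14 ± 0.40, adjusted p = 0.000836). Muscle genes were mixed. The determination factor myf5 was at 0.135 and 0.616 TPM and then at 15.4 and 16.3 TPM (3.63 ± 0.31, adjusted p = 6.45e-07), while 2 genes of the determination factor myod1 and the later genes myog, myf6, mylpf, atp2a1 and mymk were all under 0.4 TPM in each of the 4 libraries. In all, 8 of 24 rose and 3 fell, 1 of which was called without stage 19 replicate 1. The muscle shares that rose and fell were 33.3% and 12.5%. The falls were acta1, unc45b and chrna1, from 14 and 10.9 TPM to 2.28 and 3.67 TPM for unc45b, a chaperone of myosin. The call of acta1 was lost without stage 15 replicate 1 or stage 19 replicate 1, and that of chrna1 without stage 15 replicate 2 or either stage 19 library. Reads of acta1 may be shared with other actin genes, and its level is uncertain.

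Endoderm genes were mixed, with 3 rises and 3 falls among 17 (17.6% each, against 9.85% and 8.02% of all genes tested). Sox32, which fish endoderm needs, was at 417 and 308 TPM and then at 89.2 and 39.9 TPM (−2.57 ± 0.66, adjusted p = 0.0095), a call lost without stage 15 replicate 1 or stage 19 replicate 2, and a single fall was left on the list without either of these or without stage 15 replicate 2. Foxa2 was at 47.2 and 27.3 TPM and then at 52.1 and 46.4 TPM and was not called. Of 15 notochord and midline genes 8 rose, 5 without either stage 15 library or without stage 19 replicate 2, and none fell by limma, also at an unadjusted p under 0.05. The share of these genes that rose was 53.3%, against 9.85% of all genes tested. The sheath gene emilin3 was at 0.487 and 0.786 TPM and then at 5.34 and 7.58 TPM (2.18 ± 0.37, adjusted p = 0.000379) and tbxt, a T-box gene of notochord and tailbud, at 1.5 and 1.82 TPM and then at 7.88 and 9.84 TPM (1.89 ± 0.27, adjusted p = 8.78e-05), while noto was at 10.2 and 11.8 TPM and then at 8.94 and 11.6 TPM. Outside this list, the related T-box gene me-t (IGDB12846) had a log2 change of −1.86 and was not called. By limma it was called as a fall in a fit of the 4 libraries alone (adjusted p = 0.0424) and with a pseudocount of 5 TPM (adjusted p = 0.0346). The same fit of the 4 libraries called 1 rise among the notochord genes, against 8.

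Matrix genes rose in 17 of 33 cases (51.5% against 9.85% of all genes tested). The rises numbered 14 to 18 under the 3 scalings and were fewer without stage 19 replicate 2. Basement membranes are sheets of laminin, type IV collagen and nidogen, and of 10 such genes 8 rose and 1 fell. The nidogen nid2 was at 3.16 and 9.14 TPM and then at 102 and 162 TPM (4.32 ± 0.44, adjusted p = 3.14e-06), and sparc, which binds collagen, was at 0.285 and 0.847 TPM and then at 23.3 and 37.5 TPM (4.31 ± 0.31, adjusted p = 1.32e-07). Lamb2 rose from 0.745 and 0.839 TPM to 9.3 and 20.8 TPM, col4a5 from 3.11 and 5.05 TPM to 24.5 and 45 TPM and col4a1 from 0.601 and 0.825 TPM to 6.29 and 10.8 TPM. The abundant laminin lamb1, at 65.5 and 59.8 TPM and then at 114 and 193 TPM, rose in a call lost without either stage 15 library or stage 19 replicate 2, and lamc1 was not called. The fall was lamb3, a laminin of epidermal basement membrane in mammals, at 5.78 and 4.85 TPM and then at 0.135 and 0.616 TPM (−2.22 ± 0.31, adjusted p = 7.03e-05). Fibronectin, fn1, the main matrix protein of the gastrula, was at 304 and 376 TPM and then at 125 and 119 TPM and was not called (−1.46 ± 0.61, adjusted p = 0.108), although it was called as a fall in a fit of the 4 libraries alone (adjusted p = 0.0437). In that fit 4 genes of the matrix list rose, against 17, and the call of col4a5 was lost.

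Genes of epithelial contacts moved both ways. Of the claudins and tight junction genes 23.1% rose and 23.1% fell, against 9.85% and 8.02% of all genes tested. Of 13 claudins and tight junction genes 3 rose and 3 fell, with occludin, ocln, at 77.3 and 94.1 TPM and then at 14.4 and 20.8 TPM (−2.24 ± 0.33, adjusted p = 0.000115) and the related marveld2 at 35.8 TPM in both libraries and then at 9.72 and 8.34 TPM (−1.88 ± 0.37, adjusted p = 0.00139, lost under quantile normalization). Among 22 epidermal genes 4 fell and 4 rose (18.2% each, against 8.02% and 9.85% of all genes tested). The plakins ppl, evpl and dsp, which tie keratin filaments to desmosomes, fell, ppl from 912 and 663 TPM to 176 and 212 TPM (−2.01 ± 0.39, adjusted p = 0.00143). The call of evpl was lost without either stage 15 library or stage 19 replicate 2, that of dsp without stage 19 replicate 1, and the epidermal falls numbered 2 without stage 15 replicate 2 or stage 19 replicate 1. The rises numbered 1 without stage 15 replicate 1 and 2 without stage 15 replicate 2 or stage 19 replicate 2.

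In the gastrula, 11 of 28 cadherins and protocadherins and 19 of 34 guidance genes reached 1 TPM in each of the libraries. Among the cadherins and protocadherins 25% rose and 3.57% fell, against 9.85% and 8.02% of all genes tested. Of the 28 cadherins and protocadherins 7 rose, 1 fell in a call that was lost without either stage 15 library, without stage 19 replicate 1 and under quantile normalization, and cdh2, the neural cadherin, was at 49.9 and 43 TPM and then at 63.1 and 78.1 TPM and was not called. Of the 34 guidance genes 13 rose (38.2%) and none fell by limma, also at an unadjusted p under 0.05. The repellent slit2 was at 0.178 and 0.45 TPM and then at 5.32 and 10 TPM (2.67 ± 0.32, adjusted p = 1.51e-05), and sema3d was at 2 and 2.7 TPM and then at 6.82 and 13.4 TPM (1.67 ± 0.35, adjusted p = 0.00244, lost without stage 19 replicate 2). Of 4 Slit and Robo genes 3 rose, of 10 semaphorins and plexins 5, and of 10 ephrins and Eph receptors 1. In a fit of the 4 libraries alone 2 genes of the guidance list rose. This list leaned on some libraries, with 6 rises without stage 15 replicate 1, 5 without stage 19 replicate 2 and 8 under quantile normalization.

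**Figure D4:**
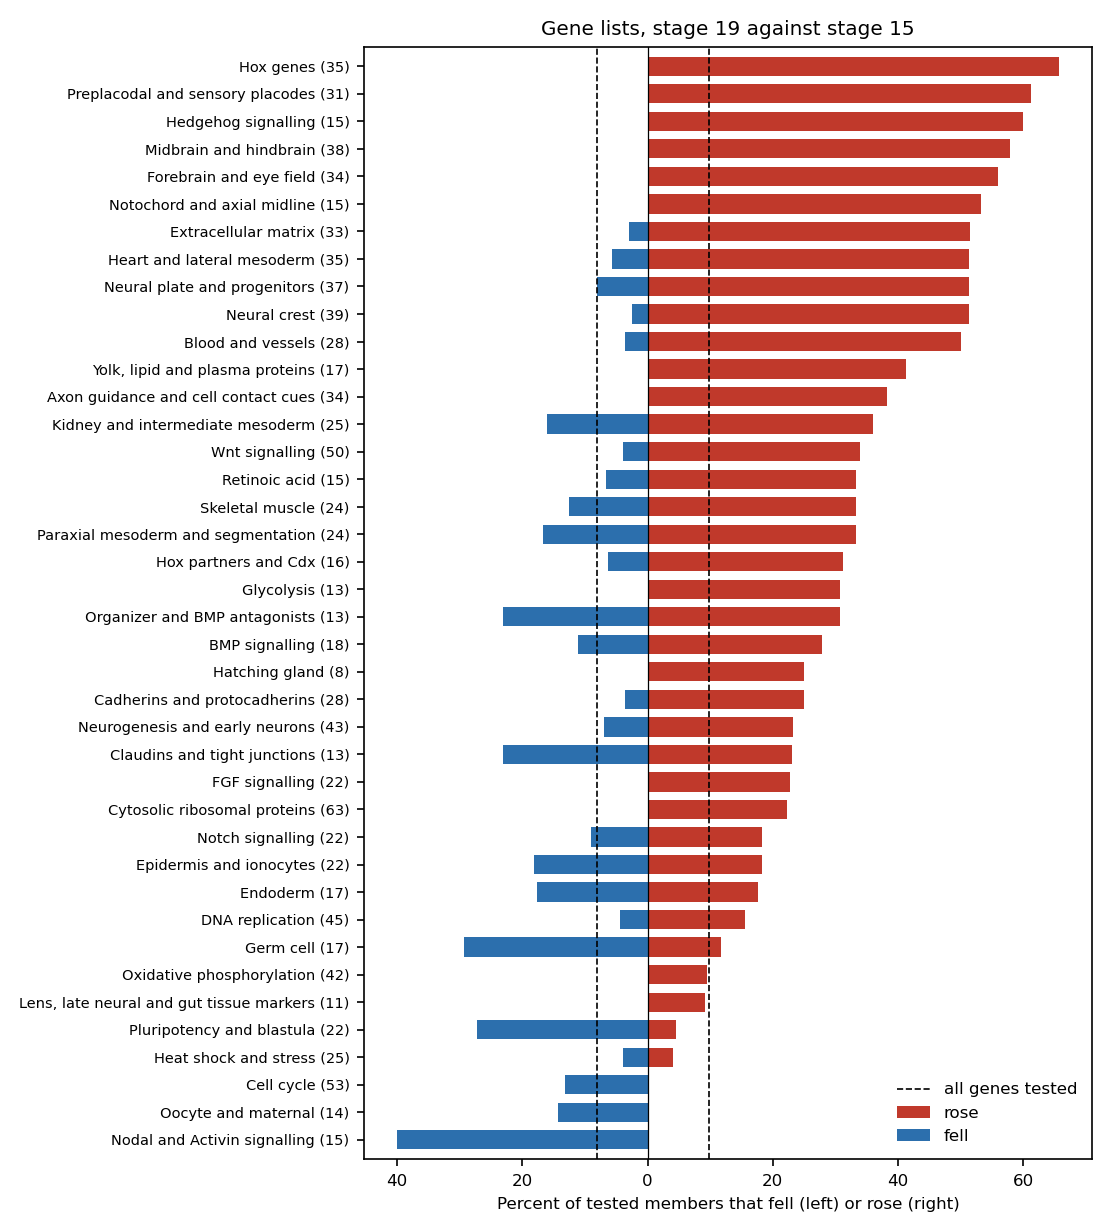
Percent of the tested members of each of 40 gene lists that rose (red, to the right) or fell (blue, to the left), with the number tested in parentheses and dashed lines at the 9.85% and 8.02% of all genes tested that rose and fell. Hox genes have the longest bar to the right (65.7%) and the Nodal and Activin list the longest to the left (40%).

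Genes of pluripotency, germ cells and the egg fell or were not called, with 3 exceptions. Among the pluripotency and blastula genes 27.3% fell and 4.55% rose, against 8.02% and 9.85% of all genes tested. All 22 of them were at 1 TPM or more in both stage 15 libraries, against 13701 of all 21179 genes tested. Of 22 pluripotency and blastula genes 6 fell, 3 of them without stage 19 replicate 1, and 1 rose. Prdm14, a regulator of pluripotent and germ cells in mammals, was at 57.7 and 56.5 TPM and then at 3.01 and 2.22 TPM (−4.01 ± 0.43, adjusted p = 4.92e-06), nanog was at 9.57 and 6.2 TPM and then at 0.736 and 0.605 TPM (−2.39 ± 0.34, adjusted p = 8.78e-05), and klf2 was at 197 and 329 TPM and then at 21.3 and 37.7 TPM (−3.12 ± 0.64, adjusted p = 0.00193). Lin28a was at 247 and 317 TPM and then at 14.2 and 192 TPM. Its stage 19 libraries stood far apart, and its call was lost without either stage 15 library or stage 19 replicate 1. The rise was tbx3, which is also a gene of lateral mesoderm.

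Of 17 germ cell genes 5 fell, 3 without stage 15 replicate 2, and 2 rose. The shares that fell and rose were 29.4% and 11.8%, against 8.02% and 9.85% of all genes tested. The germ plasm helicase ddx4, known as vasa, was at 141 and 199 TPM and then at 3.31 and 6.01 TPM (−4.94 ± 0.43, adjusted p = 8.09e-07), and tdrd1, piwil1 and nanos3 fell as well, tdrd1 from 12.4 and 12.2 TPM to 1.54 and 1.34 TPM. The call of nanos3 was lost without stage 15 replicate 2. The exceptions were nanos1a, at 2.14 and 3.55 TPM and then at 38 and 28.1 TPM (3.15 ± 0.45, adjusted p = 7.67e-05), and tdrkh, lost without stage 19 replicate 2. Of 14 oocyte and maternal genes 2 fell (14.3%) and none rose by limma, also at an unadjusted p under 0.05. Zar1l was at 12.4 and 14.2 TPM and then at 1.86 TPM in both libraries (−2.32 ± 0.40, adjusted p = 0.000494), while ybx2, an RNA-binding protein of oocytes, was at 145 and 135 TPM and then at 191 and 149 TPM. The maternal falls numbered 4 without stage 15 replicate 1 and 1 without stage 15 replicate 2 or stage 19 replicate 1.

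Cell cycle genes had a negative median, and few passed the test. Of 53 tested 7 fell (13.2% against 8.02% of all genes tested) and none rose by limma (1 had an unadjusted p under 0.05 in that direction). The median log2 change was −0.543. In both stage 15 libraries 52 of the 53 were at 1 TPM or more, against 13701 of all 21179 genes tested. The 8.02% includes genes too low to fall, so the 13.2% is no clear excess. The falls were ccne2, pttg1, ccnb2, cdc20, wee1, mybl2 and bub1b, with the S phase cyclin ccne2 at 141 and 274 TPM and then at 38.4 and 57.2 TPM (−2.05 ± 0.50, adjusted p = 0.00742). This count was 4 without stage 15 replicate 1, 2 without stage 15 replicate 2, 1 without stage 19 replicate 1 and 1 under quantile normalization. The call of mybl2 was lost without stage 19 replicate 1, and those of the other 6 were each lost on leaving out either of 2 or more libraries.

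Of 45 replication genes 7 rose (15.6% against 9.85% of all genes tested) and 2 fell (4.44%, under the 8.02% of all genes). Both genes that fell act in origin licensing. The licensing factor cdt1 was at 120 and 229 TPM and then at 24.1 and 35.5 TPM (−2.46 ± 0.35, adjusted p = 7.25e-05), and its inhibitor gmnn was at 261 and 296 TPM and then at 42.4 and 84.5 TPM (−2.20 ± 0.50, adjusted p = 0.00432, lost without stage 19 replicate 1). They were the only falls among the 45 replication genes tested, and cdt1 was the single fall without stage 19 replicate 1. Of 23 subunits of the MCM, ORC, GINS, RFC and RPA complexes 6 rose and none fell by limma, also at an unadjusted p under 0.05, and pcna was at 499 and 593 TPM and then at 493 and 803 TPM. The 7 rises of the list numbered 2 without either stage 15 library and 1 without stage 19 replicate 2.

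Cytosolic ribosomal protein genes were positive in 62 of 63 cases with a median log2 change of 0.951, and 14 passed the test (22.2%). Rpl13 was at 1010 and 1350 TPM and then at 2500 and 2940 TPM (1.21 ± 0.30, adjusted p = 0.00734), a call lost without stage 15 replicate 1 or stage 19 replicate 2 and under quantile normalization. The count depended on scaling, with 8 rises under median-of-ratios scaling, 1 under quantile normalization and 3 to 5 without 1 library, and processed copies of such genes can share reads. In the same libraries the mitochondrial share of TPM was lower at stage 19, cox1 at 41800 and 44420 TPM and then at 12260 and 11620 TPM, and its part in these levels was not tested beyond rescaling each library to its nuclear genes, which left 14 rises. Nuclear genes of oxidative phosphorylation rose in 4 of 42 cases (9.52%, near the 9.85% of all genes). Among the glycolysis genes tested 30.8% rose. Of 13 glycolysis genes 4 rose, 2 without stage 15 replicate 1 and 1 without stage 19 replicate 2, with eno1 at 33.2 and 41.4 TPM and then at 148 and 129 TPM (1.87 ± 0.32, adjusted p = 0.000437) and gapdh at 850 and 1010 TPM and then at 665 and 458 TPM.

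Of 17 yolk, lipid and plasma protein genes 7 rose (41.2% against 9.85% of all genes tested). Besides rbp4, selenop, a selenium carrier of plasma, was at 0.931 and 3.74 TPM and then at 108 and 114 TPM, and the complement gene c9 was at 0.0626 and 0.0583 TPM and then at 5.73 and 5.68 TPM (2.66 ± 0.33, adjusted p = 2.49e-05). Of 25 heat shock and stress genes 1 rose and 1 fell (4% each, under both shares of all genes), and the rise was lost without stage 15 replicate 2. The stress gene sesn1 fell from 153 and 177 TPM to 32.7 and 42.8 TPM (−2.11 ± 0.38, adjusted p = 0.000654), and hsp90ab1 was at 1460 and 1280 TPM and then at 1550 and 1810 TPM. Lce, a hatching enzyme, was at 0 and 0.151 TPM and then at 7.28 and 9.87 TPM (3.14 ± 0.56, adjusted p = 0.000593).

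Homeobox genes rose in 94 of 226 cases (41.6%) and fell in 10 (4.42%), against 9.85% and 8.02% of all genes tested. In the zf-C2H2 family, the most numerous, 460 of 551 genes were at 1 TPM or more in both stage 15 libraries, against 13701 of all 21179. Of the 551 genes 117 fell (21.2%) and 35 rose (6.35%), with a median log2 change of −0.494. Those falls numbered 76 without stage 15 replicate 1 and 63 without stage 19 replicate 1, and the rises 19 under quantile normalization. T-box genes rose in 8 of 22 cases and fell in 3, and 8 rose without any 1 library. The T-box shares that rose and fell were 36.4% and 13.6%. Basic helix-loop-helix genes rose in 30 of 122 cases (24.6%) and Fork head genes in 11 of 61 (18%), 7 under quantile normalization. Homeobox and basic helix-loop-helix rises were fewer without stage 19 replicate 2. THAP genes, whose domain is related to that of a transposase, had no rise among 22 by limma, also at an unadjusted p under 0.05, with a median log2 change of −0.454. Homeobox genes at 1 TPM or more in both libraries numbered 71 of 226 at stage 15 and 140 at stage 19.

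Of 314 long noncoding RNAs tested 35 rose (11.1%) and 18 fell (5.73%), near the shares of all genes, and the rises numbered 21 without stage 15 replicate 1, 21 without stage 19 replicate 2, 23 without stage 15 replicate 2 and 21 under quantile normalization, and the falls 11 without stage 19 replicate 1. IGDB26246, on the minus strand of chromosome 9 at 18862354 to 18866685, was at 0.0454 and 0.147 TPM and then at 20.4 and 29.2 TPM (4.54 ± 0.41, adjusted p = 1.00e-06). A gap of 26.9 kb separated its model from that of the amino acid transporter gene slc7a4, which fell and was at 69.6 and 171 TPM and then at 0.729 and 0.832 TPM. The noncoding gene IGDB20642, on chromosome 24 at 2686747 to 2687918, was at 305 and 243 TPM and then at 50.6 and 34.1 TPM (−2.68 ± 0.39, adjusted p = 0.000104). The mean of IGDB20642 was 0.0253 TPM at stage 06, 330 TPM at stage 11 and 3.25 TPM at stage 25.

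Stages 11 and 25 flank the comparison and share no library with it, although they share its estimate of the spread. Of all genes tested, 25.7% were higher and 20.5% lower at stage 25 than at stage 11, 46.2% in either direction. Among the 2087 rises 1548 (74.2%) were higher and 93 (4.46%) lower, with a median log2 change of 2.25. Among the 1698 falls 978 (57.6%) were lower and 124 (7.3%) higher, with a median of −1.42. Of the genes not called 21.7% were higher and 18.8% lower. Most rises thus had a call of the same sign across the wider interval, and the share was smaller among the falls.

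The stage of the highest mean was not independent of the call, which used the stage 15 and stage 19 values. No rise peaked at stage 15 and no fall at stage 19, and an excess over all genes follows in part from the call. By mean TPM 290 of the rises (13.9%) were highest at stage 19, against 4.04% of all genes tested, and 1582 (75.8%) at stage 25 or later, against 54.6%. Of the falls 757 (44.6%) were highest at stage 15 itself, against 11% of all genes tested, and 684 (40.3%) at stage 11 or earlier, against 30.4%. The median level of the rises was 1.52 TPM at stage 15, 10.03 TPM at stage 19 and 15.9 TPM at stage 25, and that of the falls was 33.3, 8.08 and 6.01 TPM. In total, 1012 genes were under 1 TPM in both stage 15 libraries and at 1 TPM or more in both stage 19 libraries, of which 711 rose, and 386 genes were the reverse, of which 235 fell.

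Some genes that fell were nevertheless higher at stage 25 than at stage 11. Asb12, which encodes an ankyrin repeat protein, was at 0.838 and 0 TPM at stage 11, at 27.1 and 45.6 TPM at stage 15, at 0.739 and 1.42 TPM at stage 19 and at 2.41 and 4.09 TPM at stage 25, and it was higher at stage 25 than at stage 11 (1.62 ± 0.37, adjusted p = 0.0014). Stmn2, osr1, unc45b and rspo2 were likewise higher at stage 25 than at stage 11, rspo2 at 0.124 and 0.0207 TPM and then at 6.38 and 6.65 TPM (2.81 ± 0.26, adjusted p = 9.49e-08). Aldh1a2 was at 4.12 and 1.6 TPM at stage 11 and at 38.8 and 48.8 TPM at stage 25 (3.61 ± 0.35, adjusted p = 1.90e-07). Each of these 6 genes had a level at stage 19 below those of both stages 15 and 25. The level of asb12, rspo2 and aldh1a2 at stage 25 stayed below that at stage 15. Stage 25 was also above stage 19, whose libraries the main comparison shares, for stmn2, osr1, unc45b and rspo2 (log2 changes of 2.62, 2.30, 2.47 and 1.21), while asb12 and aldh1a2 did not pass that test (adjusted p = 0.107 and 0.173). Other falls were low at stage 25: nodal was at 0.154 and 0.272 TPM, ddx4 at 3.31 and 3.66 TPM and gsc at 1.14 and 1.96 TPM.

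**Figure D5:**
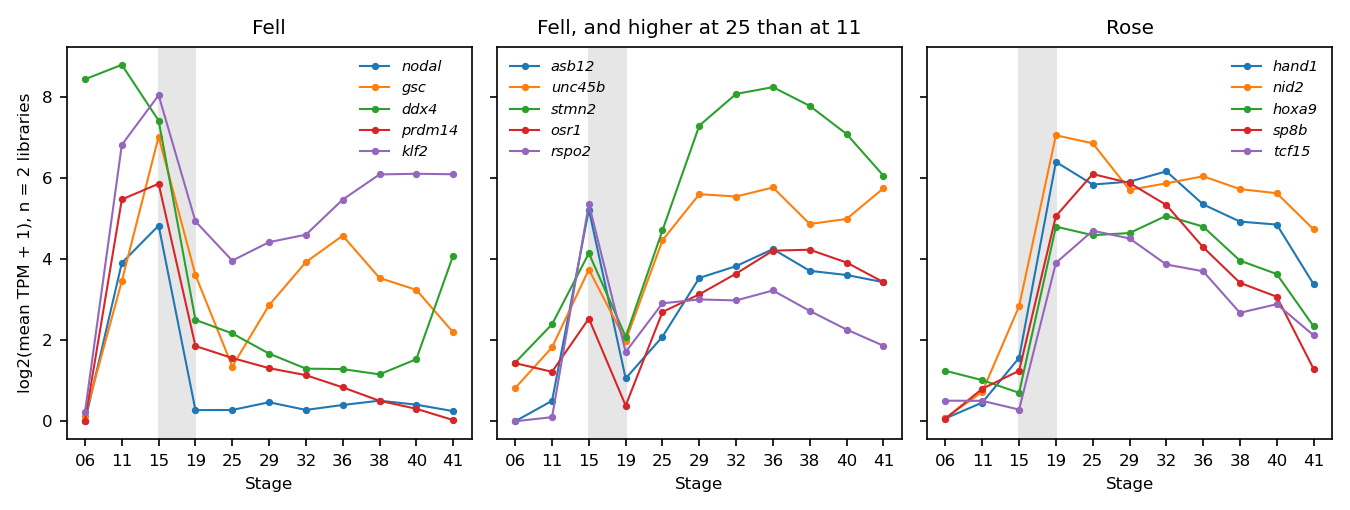
Mean TPM over 2 libraries, as log2(mean TPM + 1), at each of the 11 stages for 5 genes that fell (left), 5 that fell and were higher at stage 25 than at stage 11 (middle) and 5 that rose (right), with the interval from stage 15 to stage 19 shaded. The genes in the middle panel have a low point at stage 19 between higher levels at stages 15 and 25.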

How the data were processed

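Total RNA was sequenced by the authors with stranded, poly(A)-selected libraries. Per the labels and the study's methods, reads were aligned with HISAT2 (version 2.1.0) to the Hd-rR reference genome and quantified with StringTie (version 1.3.3b) on the study's own gene models, and the authors deposited TPM values per gene for each library. The build version was not given in the sources used here, and positions are those of the deposited gene models, counted from 1. TPM holds no read depth. The columns of replicate 1 summed to 980148 to 998174 TPM and those of replicate 2 to 1000000 TPM. Columns of no sample numbered 0, and the gonad samples were not analysed here. Symbols came from RefSeq genes with the same span (a Jaccard index of at least 0.5), which matched 18106 of 26643 gene models, and from the study's table of transcription factors.

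The test took in the 21179 genes that reached 1 TPM in no fewer than 2 of the 22 time course libraries. A mean per stage was fitted to log2(TPM + 1) with limma (version 3.58.1, R version 4.3.3), with an intensity trend in the variance, and the contrasts stage 19 minus stage 15 and stage 25 minus stage 11 were adjusted over all genes tested by the Benjamini-Hochberg method. The residual degrees of freedom came from all stages, since an exact permutation test of 2 against 2 libraries cannot go below p = 0.333. The fit was tested on simulated data of this comparison, where it recovered 6%, 72%, 98% and 100% of genes shifted by log2 values of 1, 2, 3 and 4 and wrongly called 9 of 20979 others. In it 50 genes were shifted at each size, all with a fitted stage 15 log2(TPM + 1) of 2 or more. The noise was drawn independently for each library from the variances of the fit. These rates therefore do not cover lower genes, correlated libraries or data in which more genes change.

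Named genes were the 10 greatest rises and falls with a mean of at least 10 TPM at the higher stage, in each list or factor family of at least 15 genes the 3 most abundant members and the 3 greatest changes each way, every member of a list of up to 25 genes, and 2 noncoding RNAs each way. Outside this rule, IGDB16139, cox1, hoxa11b, wnt1, wnt3, wnt4, wnt6, wnt7a, wnt10b, hoxb1 (IGDB09751), lgr5, rspo3, dact1, nkd1, spi1, tal1, hand2, nkx2-5, snai2, col4a1, col4a5, bub1b, wee1, rpl13, sema3d and atoh1 were chosen after their values were seen. The comparison, the gene lists and this rule were chosen with earlier results of these data known. Alternatives were other pseudocounts (0.1 and 5 TPM), filters, scalings, variance models, minimum changes, the 4 libraries alone, the other strain left out of the fit, a term for the replicate number, and each library left out in turn.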

Additional observations from a re-analysis of the deposited data

How the results depend on the processing

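The 2087 rises and 1698 falls became 1011 and 1203 with a pseudocount of 5 TPM, 768 and 523 in a fit of the 4 libraries alone, and 655 and 547 at a minimum log2 change of 2. Leaving out 1 library gave 1259 to 2010 rises and 955 to 1592 falls, with fewer samples in the fit, and the lone library of a stage was assumed to vary like the other stages. The fewest rises came without stage 19 replicate 2 and the fewest falls without stage 19 replicate 1 (955) and stage 15 replicate 2 (1058). Genes higher at stage 25 than at stage 11 (5440) numbered 3266 with a pseudocount of 5 TPM and 2770 at a minimum change of 2, genes lower (4345) numbered 1870 at that minimum, and leaving out 1 library gave 4746 to 5226 and 3526 to 4825. Falls outnumbered rises with a pseudocount of 5 TPM and without stage 19 replicate 2 (1259 rises and 1592 falls), where rises made up 45.7% and 44.2% of calls, against 55.1%. Leaving the libraries of the other strain out of the fit gave 2069 rises and 1679 falls and lost 6 named calls. Other filters, scalings and variance models kept these counts within 1.5 times. Of 237 named genes called, 156 were called without any 1 of the 4 libraries, 190 under all 3 scalings and 131 in the 4 libraries alone, and none changed sign under any alternative run. Rescaling to nuclear genes was chosen after seeing the data.

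The replicate numbers gave 2 pairs and were not taken to pair the libraries. The correlation of same-numbered deviations was 0.26 for stages 15 and 19 and ran from 0.048 to 0.669 over 55 pairs of stages, 53 of them over 0.1. With a replicate block, 2411 genes rose and 2005 fell, and 5598 and 4526 were higher and lower at stage 25 than at stage 11. The block gave 26 rises among ribosomal protein genes, against 14, and called fn1 as a fall (adjusted p = 0.0227). Low values carry an unknown counting error. Changes near a log2 value of 1 were seldom called on simulated data. There an estimate under 1 could not be called, and far fewer genes changed than were called here, so that rate does not carry over.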
